A study of Mus musculus with 21 samples.

Results

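Creatine kinases are the enzymes that move a phosphate group between ATP and creatine, and the 4 mouse genes that encode them (Ckm, Ckb, Ckmt1 and Ckmt2) are described here in the developing heart. The genes were taken by symbol from the deposited count table, so they are 4 of its 24421 genes, and all 4 passed the filter on low counts. Peaks of GATA4 and of open chromatin were counted for each gene when they lay in its body or within 50 kb of it.

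Creatine kinase works as an energy buffer. Cytosolic enzyme is built from muscle subunits (Ckm) and brain subunits (Ckb), as pairs of like or unlike subunits, and sits beside sites of ATP use such as the sarcomere M-band and ion pumps. The mitochondrial enzymes, the broadly expressed Ckmt1 and the muscle form Ckmt2, lie between the mitochondrial membranes and charge creatine with phosphate from newly made ATP. In striated muscle the brain form is known as the earlier cytosolic form, and the muscle form as the one that comes to dominate with maturation.

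All samples were mouse hearts at E12.5, in embryonic days, labelled as ventricular apex or as cardiomyocytes. Endothelial RNA (EC, 2 libraries of 60000 sorted cells) came from Tie2-Cre mice whose GFP reporter, Rosa26fsTrap, is switched on by Cre. Tie2-Cre is active in endothelial and endocardial cells and also in blood lineages. Cardiomyocyte RNA (CM, 3 libraries) carries only a cell type label. GATA4 occupancy was mapped by streptavidin pull-down of GATA4 biotinylated after Cre activity, in 3 Tie2-Cre libraries and 3 libraries of the cardiomyocyte driver Tnnt2-Cre, each from 15 to 20 hearts. ATAC-seq, which reads open chromatin, was done in 2 libraries of 40000 sorted Tie2-Cre cells. A further 6 ATAC-seq libraries held 20000 sorted cells each, 3 labelled Gata4 het and 3 labelled Gata4 ko. Both of those genotypes carried the endothelial driver Cdh5(Pac)-CreERT2 with the Rosa26mTmG reporter, and both had received 1 mg of tamoxifen through the mother at embryonic day 9.5. Cardiomyocyte ATAC-seq (2 samples) is left out here, so open chromatin is reported for endothelial cells only. Separate litters are not stated for the replicates, and p-values therefore measure only how these libraries spread.

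The marker genes followed the labels. Endothelial markers (6 of 6 called higher in EC) summed to 4274 to 4297 CPM (counts scaled to the library size) in EC and 586.5 to 682.9 in CM. Cardiomyocyte markers (8 of 8 called lower in EC) summed to 390.9 to 405.3 CPM in EC and 77606 to 86239 in CM. The EC libraries held 21682362 and 27660790 counted reads, and the CM libraries 42948614 to 48393473. Embryonic globin and other erythroid genes summed to 1380 to 3200 CPM in CM against 18.4 to 23.2 in EC. Hba-a1, Hbb-bs and Hbb-bt had 0 counts in all 5 RNA libraries. The part of these other cell types in the values below was not tested. In such bulk samples, fewer cells of a type and less RNA per cell cannot be told apart.

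The stretches of 250 bases just upstream of the RefSeq starts of Ckm, Ckb and Ckmt2 are shown because open chromatin over them differed: 1 was covered by an ATAC peak in 8 of 8 endothelial libraries and the others in 0 of 8. They are given 5′ to 3′ on the strand of the gene (RefSeq, GRCm38.p6, the assembly that mm10 names), at chr7:19410844-19411093 on the plus strand for Ckm, chr12:111672339-111672588 on the minus strand for Ckb and chr13:91876886-91877135 on the minus strand for Ckmt2. Capitals mark matches, on either strand, to 8 motifs. The GATA motif was taken as AGATAA, as the same letters ending in G, and as both of these with T as the first letter. The muscle and heart motifs were the E-box (CANNTG), the M-CAT element of TEAD factors (CATTCC), and the CArG and MEF2 boxes by name. The ERR element that binds oestrogen-related receptors was taken as AAGGTCA. General promoter motifs were the GC box with the letters GGGCGG and the TATA box with the letters TATAAA.
Ckm: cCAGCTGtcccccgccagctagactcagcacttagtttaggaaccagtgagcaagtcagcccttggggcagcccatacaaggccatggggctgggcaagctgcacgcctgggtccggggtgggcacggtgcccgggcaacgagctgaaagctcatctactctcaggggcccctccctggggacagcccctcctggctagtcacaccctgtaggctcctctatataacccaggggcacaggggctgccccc
Ckb: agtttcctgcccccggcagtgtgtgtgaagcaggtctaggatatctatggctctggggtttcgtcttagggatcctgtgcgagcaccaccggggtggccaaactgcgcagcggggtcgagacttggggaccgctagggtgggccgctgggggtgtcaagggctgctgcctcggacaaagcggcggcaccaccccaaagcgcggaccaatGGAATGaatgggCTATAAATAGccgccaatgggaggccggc
Ckmt2: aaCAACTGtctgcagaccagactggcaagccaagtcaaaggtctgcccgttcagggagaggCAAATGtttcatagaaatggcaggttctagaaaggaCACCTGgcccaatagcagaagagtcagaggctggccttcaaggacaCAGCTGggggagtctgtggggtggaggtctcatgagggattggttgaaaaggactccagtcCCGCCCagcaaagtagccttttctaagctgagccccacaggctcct

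No GATA motif occurred in these stretches, nor in those upstream of the 2 RefSeq starts of Ckmt1, whereas 26.5% of all 32851 RefSeq promoters had a match in the same 250 bases. The Ckm stretch held 1 E-box and the Ckmt2 stretch held 4, a motif found in 66.2% of promoters. Ckb had an M-CAT match at position -41 from its start (12.6% of promoters). A TATA box at -28 of Ckb (12.4% of promoters) overlapped a MEF2 box that began at -29 (2.92% of promoters). Ckmt2 had 1 GC box (32.7% of promoters). The ERR element (4.08% of promoters) and the CArG box (1.47%) were not in the printed letters. The stretch upstream of the first RefSeq start of Ckmt1 (chr2:121357776), not printed, held an ERR element at -179. It also held an M-CAT match at -71 and a TATA box at -31. The stretch of the second Ckmt1 start had no match to any of the 8 motifs. The Ckb stretch held 16 CpG dinucleotides, the Ckm stretch 6 and the Ckmt2 stretch 2, against a median of 6 over all promoters. A match is only a stretch of letters, and these windows say nothing of motifs farther away.

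The first comparison set creatine kinase RNA in EC against CM. The CM libraries share a tag in their column names that the EC libraries lack, and its meaning is not given. A difference between these sets of libraries cannot be told apart from cell type. All 4 genes were lower in EC, in a table in which 40.2% of the 14851 genes tested were lower in EC and 37.5% were higher, so a call of lower in EC is common in these data. Endothelial cells held brain-type RNA with next to none of the other forms. Cardiomyocytes held muscle and brain forms at ratios of 0.745 to 2.84 per length, and the muscle mitochondrial form at a lower level.

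Ckm (chromosome 7, 19411094 to 19421583, mm10, plus strand, 8 exons) encodes the muscle subunit. Its counts were 0 and 1 in the EC libraries and 3340, 3070 and 9889 in the CM libraries, or 0 and 0.0453 CPM against 69.5, 72.2 and 222 CPM. The groups did not overlap, and CM replicate 3 stood far above the other cardiomyocyte libraries. Read totals gave a CM over EC ratio of 6068 with a 95% exact counting interval of 1089 to 239698, which covers counting error only. The edgeR quasi-likelihood test gave -12.35 as log2 of EC over CM (SE 1.15, adjusted p = 2.47e-06), which rests on a single EC read. Without that library (EC replicate 2) the fitted value was -15.28, and without CM replicate 3 it was -11.56.

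Ckb (chromosome 12, 111669355 to 111672338, minus strand, 8 exons) encodes the brain subunit. Its levels were 32.5 and 28.1 CPM in EC and 97.5, 86.4 and 81.7 CPM in CM, from 620 to 4684 reads per library. It was the only member with more than 3 reads in any EC library, and every CM library exceeded both EC libraries. The EC mean was 30.3 ± 3.13 CPM (SD, n = 2) and the CM mean 88.5 ± 8.12 (SD, n = 3), a 2.92-fold difference (log2 fold change -1.55, SE 0.10, edgeR adjusted p = 1.7e-07). Markers of neural and neural crest cells, in which Ckb is known to be abundant, summed to 21.2 to 25.3 CPM in EC and 13.4 to 14.6 in CM. Of the 5 tested, 2 were called higher in EC (Tubb3, at 12.3 CPM against 0.417 in CM, and Sox10, at 1.12 against 0.00784), 2 lower and 1 neither. Gfap had no EC read and at most 3 in any CM library, and the part of neural cells in the Ckb level was not tested.

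Ckmt1 (chromosome 2, 121358641 to 121363737, plus strand, 9 exons) encodes the ubiquitous mitochondrial form. It was near the detection limit, with 3 and 0 reads in EC and 49, 32 and 48 in CM (0.106 and 0 CPM against 1.02, 0.753 and 1.08 CPM). The CM over EC ratio of read totals was 16.0 (95% exact counting interval 5.36 to 78.6). The fitted log2 fold change was -3.93 (SE 0.72, edgeR adjusted p = 0.000467), and it was -8.23 without EC replicate 1, which held all 3 of the EC reads. Its end overlaps that of Strc on the other strand, and Strc had at most 2 reads in any library.

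Ckmt2 (chromosome 13, 91853387 to 91876885, minus strand, 10 exons) encodes the sarcomeric mitochondrial form. No read was counted in either EC library, while CM had 363, 322 and 350 reads, or 7.56, 7.58 and 7.85 CPM. The cardiomyocyte libraries were tightly grouped, at 7.66 ± 0.166 CPM (SD, n = 3), unlike Ckm in the same libraries. Against a floor of 3 counts over both EC libraries, Ckmt2 was at least 128-fold higher in CM, and the 95% exact counting interval of the ratio began at 104. The edgeR test gave an adjusted p of 4.41e-08.

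**Figure D1:**
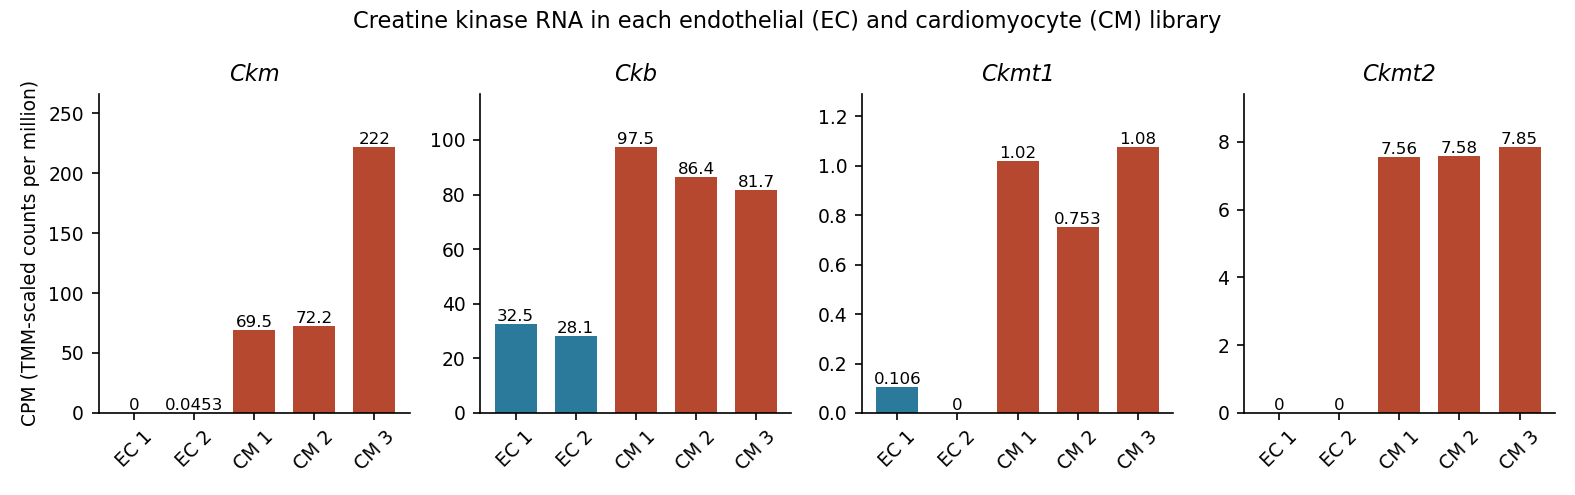
CPM (TMM-scaled, linear axes that start at 0 and differ between panels) of each creatine kinase gene in the 2 endothelial (EC) and 3 cardiomyocyte (CM) libraries, 1 bar per library. Ckb is seen in both cell types (28.1 to 32.5 in EC and 81.7 to 97.5 in CM), Ckmt2 is at 0 in both EC libraries, and Ckm reaches 222 in CM replicate 3 against 69.5 and 72.2 in the other CM libraries.

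Levels of the different forms were compared as RPKM, the CPM divided by the exon length in kilobases. In EC, Ckb stood at 22.0 and 19.0 RPKM, and it made up 99.7% and 99.8% of the summed RPKM of the 4 genes. In CM, Ckb stood at 66.0, 58.5 and 55.3 RPKM and Ckm at 49.1, 51.1 and 157 RPKM. Ckm therefore lay below Ckb in CM replicates 1 and 2 and above it in replicate 3, with Ckm to Ckb ratios per length of 0.745, 0.873 and 2.84. The order of the cytosolic forms in cardiomyocytes thus did not hold across replicates.

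The mitochondrial forms ranked below both cytosolic forms in each CM library. Ckmt2 ran from 5.08 to 5.29 RPKM and Ckmt1 from 0.474 to 0.678 RPKM, a ratio of 7.80 to 10.8. Together they made 4.74%, 4.84% and 2.73% of the summed RPKM in the CM libraries. The sum over the 4 genes was 20.5 ± 2.15 RPKM for EC (SD, n = 2) and 151 ± 57.9 for CM (SD, n = 3), a 7.37-fold difference.

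As a share of the 4 genes, Ckb made up 99.8% ± 0.0956 in EC and 43.6% ± 15.9 in CM (SD, n = 2 and n = 3). Ckm took 52.3% ± 17.1 of the CM sum and 0.0841% ± 0.119 of the EC sum. No share overlapped between the groups. For Ckm, Ckb and Ckmt2 the exact two-sided permutation p was 0.1 over 10 arrangements, the smallest this design allows. Ckmt1 came closest to overlap, with up to 0.303% in EC and from 0.311% in CM, and its exact permutation p was 0.2.

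**Figure D2:**
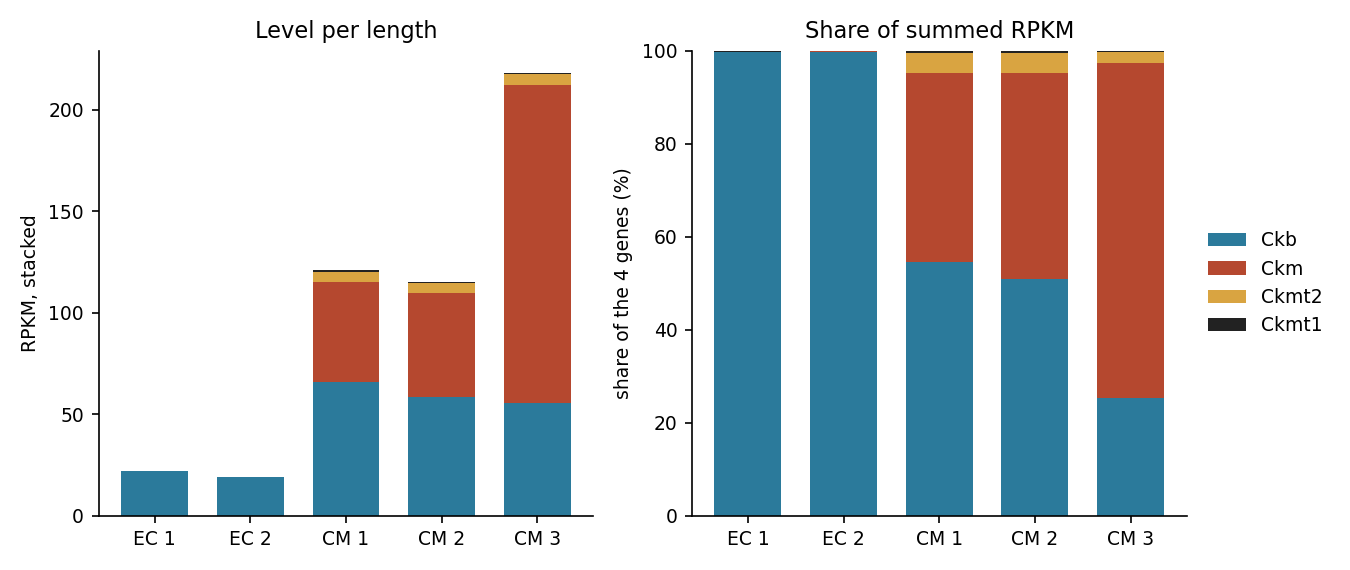
Left, RPKM of the 4 creatine kinase genes stacked per library; right, the same as a percentage of their sum. Ckb fills both EC bars (99.7% and 99.8%), Ckm and Ckb share the CM bars, and Ckm takes 71.9% in CM replicate 3 against 40.7% and 44.4% in replicates 1 and 2.

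CM replicate 3 differed from replicates 1 and 2 in few abundant genes. Its Ckm level was 1.65 higher on the log2 scale than their mean, and only 4 of the 7086 genes with a mean of at least 20 CPM in CM were 2-fold or more higher (0.0564%). Those genes, named after their values were seen, were Fabp4, Ckm, Mir6236 and Fosb, and 3 other genes were 2-fold or more lower. For Mir6236 the library that stood apart was replicate 1, with 22.0, 188.6 and 168.4 CPM in CM replicates 1 to 3. Ckb, Ckmt1 and Ckmt2 differed by -0.17, 0.29 and 0.05 in the same comparison. Myom2, an M-band protein gene also named after its values were seen, had at most 1.88 CPM in CM replicates 1 and 2 and 5.77 in replicate 3. The 9 skeletal muscle markers summed to 152.8, 156.5 and 141.8 CPM, most of it from Acta1 (148.7, 151.3 and 136.4 CPM). Tnnt3 stood at 3.48, 4.42 and 4.67 CPM. Myf5 and Pax7 were at 0, and Myod1, Myog and Myf6 stayed at or under 0.208 CPM. Smooth muscle markers summed to 1742, 1827 and 2082 CPM, erythroid markers to 3200, 2478 and 1380 CPM, and their part in the Ckm level was not tested.

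Genes with the most similar profile over the 5 RNA libraries were found by Euclidean distance between centred log2 CPM values, among 8067 or 8068 tested genes whose level was 20 CPM or more in all libraries of a group. Ckm was nearest to Mirlet7a-1, 2900060B14Rik and the sarcomere gene Ttn, the closest at a distance of 1.94. Ckmt2 was nearest to the ventricular myosin light chain gene Myl2, Snord15b and the cardiac troponin gene Tnni3 (0.33 to 0.42). Ckb was much closer to its neighbours in profile, Cep85, D10Jhu81e and Gstm5 (0.07 to 0.10). Ckmt1 was nearest to Grb14, Snord22 and Pxylp1 (0.94 to 1.14). Ckm, Ckmt1 and Ckmt2 had EC totals of 1, 3 and 0 reads. Their EC values here therefore rest largely on the prior count of 1 added before taking logs. The genes named for these 3 members depend on that setting.

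Genes of creatine supply were split between the cell types. Of 5 genes for creatine synthesis and transport, 2 were called higher in EC, 2 lower and 1 neither. Over all genes tested, 40.2% were lower in EC and 37.5% higher, the shares beside which each list here and below stands. Gatm, which makes the creatine precursor guanidinoacetate, had 139 and 130 CPM in EC and 19.0, 18.5 and 14.1 in CM. It was higher in EC by 2.97 on the log2 scale (SE 0.12, edgeR adjusted p = 2.49e-09), and the groups did not overlap. Gamt, which methylates that precursor to creatine, lay at 9.82 and 11.3 CPM in EC and 12.7, 11.3 and 10.9 in CM, overlapping ranges with no call (log2 fold change -0.14, edgeR adjusted p = 0.348).

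Slc6a8, the creatine transporter at the cell surface, had 19.0 and 21.0 CPM in EC and 35.1, 37.6 and 40.5 in CM (log2 fold change -0.92, SE 0.10, edgeR adjusted p = 1.02e-05). Slc16a12, another transporter of creatine, reached only 1.06 and 0.996 CPM in EC against 56.5, 53.9 and 40.5 in CM (log2 fold change -5.60). Slc16a9 ran the other way at low level, 4.31 ± 0.883 CPM for EC (SD, n = 2) against 0.671 ± 0.307 for CM (SD, n = 3). The list's median log2 fold change was -0.14, beside -0.06 over all genes tested.

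Partners of the mitochondrial kinases were lower in EC in most cases. Of 7 genes for nucleotide exchange and outer membrane channels, 5 were called lower and 0 higher (median -1.27). Slc25a4, the muscle-type ADP/ATP carrier, stood at 610 ± 45.5 CPM for EC and 1980 ± 119 for CM (SD, n = 2 and n = 3; log2 fold change -1.70), Slc25a5 differed by -1.27, and the porin Vdac2 by -1.65. Of 7 genes of the contact and cristae machinery, 6 were lower and 0 higher (median -1.84), among them Chchd3 (-2.39), Immt (-1.61) and the ATP synthase subunit Atp5b (-1.84).

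Genes at sites of ATP use were lower in EC in most cases. Of 9 tested genes for pumps and M-band proteins, 8 were lower in EC and 1 higher (median -2.87). Without CM replicate 3, 7 were lower, and Myom3 did not pass the filter on low counts and was not tested. Myom1, an M-band protein, had 11.9 ± 0.655 CPM for EC and 2033 ± 70.2 for CM (SD, n = 2 and n = 3; log2 fold change -7.42). The sodium pump subunit Atp1b1 differed by -3.11 and the calcium pump Atp2a2 by -2.36. Atp2a3, a calcium pump of non-muscle cells, ran against them at 2.07.

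Other phosphate-transfer kinases were mixed. Of 8 tested adenylate kinases, which interconvert adenine nucleotides, 5 were lower in EC, 1 higher and 2 neither (median -0.95, the same with Ak7 at its bound). Ak1, the cytosolic muscle form, stood at 18.1 ± 5.15 CPM for EC and 202 ± 9.74 for CM (SD, n = 2 and n = 3; log2 fold change -3.47), Ak4 differed by -1.27 and Ak3 by -1.08. Ak7, named after its values were seen, had no read in EC and was at least 9.43-fold higher in CM. Of 9 other nucleoside phosphate kinases, 4 were lower, 1 higher and 4 neither (median -0.44), with Nme3 at -1.93, Nme6 at -1.12 and Nme2 at 0.35. The part of this list called lower was near the 40.2% of all genes tested.

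The AMP-activated kinase senses the nucleotide ratio that creatine kinase buffers. Of its 8 listed genes, 6 were lower in EC, 1 higher and 1 neither (median -0.92). The catalytic subunit Prkaa2 had 4.63 ± 0.525 CPM for EC and 230 ± 25.1 for CM (SD, n = 2 and n = 3; log2 fold change -5.62), Prkag2 differed by -2.33 and Prkab2 by -1.51. Prkab1 was higher in EC by 0.92.

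Regulators known at muscle or mitochondrial creatine kinase genes were split. Of 17 tested, 10 were lower in EC, 6 higher and 1 neither (median -1.02), and 9 were lower without CM replicate 3. The nuclear receptor gene Esrrg stood at 9.22 ± 0.154 CPM for EC and 133 ± 3.91 for CM (SD, n = 2 and n = 3; log2 fold change -3.85), and the coactivator gene Ppargc1a differed by -4.07. Trp53 was higher in EC, at 103 ± 1.43 CPM against 9.92 ± 0.870 in CM (SD, n = 2 and n = 3; log2 fold change 3.37). Gata4, the factor mapped by the pull-down, was higher in EC by 1.72. Over all 8 lists, 46 of 70 tested genes were lower in EC and 12 higher, against the 40.2% and 37.5% of all genes given above.

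**Figure D3:**
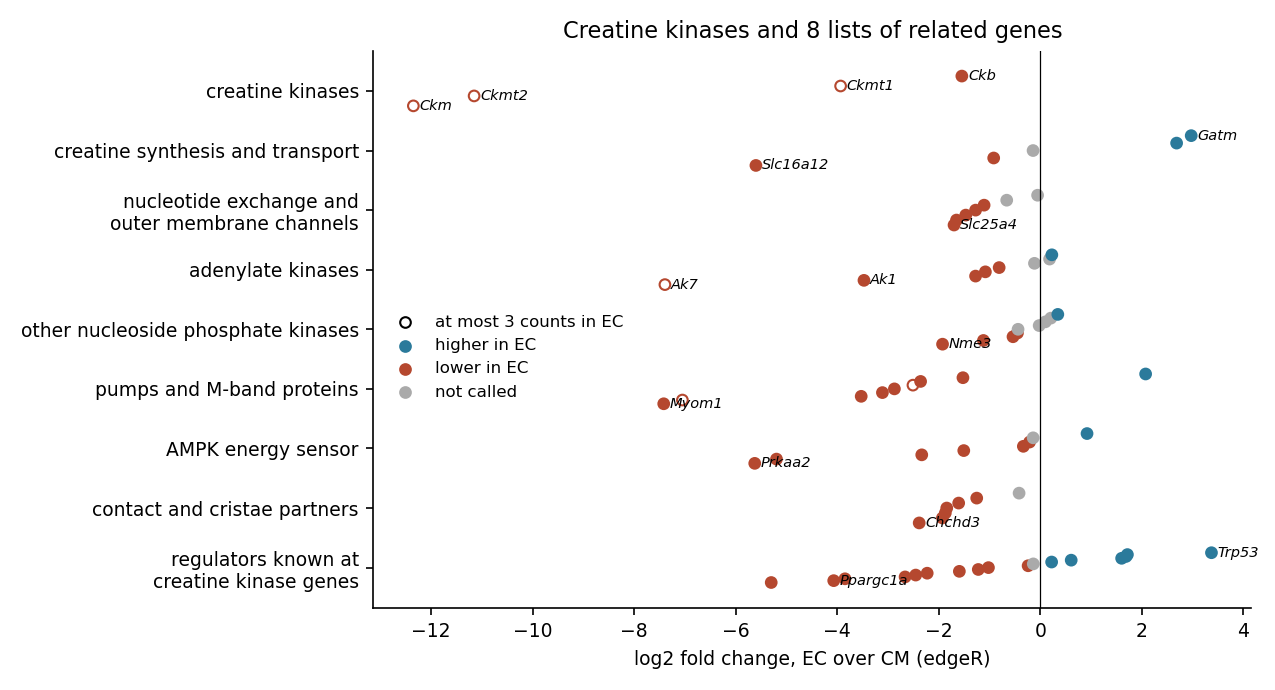
Log2 fold change of EC over CM (x axis) for the 4 creatine kinases and the tested genes of 8 related lists, 1 point per gene, coloured by the edgeR call; open points have at most 3 counts over both EC libraries, so their fitted values are not bounds. The 4 kinases lie left of 0, as do 5 of 7 exchange and channel genes called lower, while Gatm (2.97) and Trp53 (3.37) lie to the right.

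Genes around the kinases were also measured. Within 50 kb of the 4 bodies, 13 neighbours were tested, 1 higher in EC, 8 lower and 4 neither. Over all genes tested, 37.5% were higher in EC and 40.2% lower. At Ckm, Klc3 (0.496 and 0.0453 CPM in EC and 2.09 to 2.27 in CM) was lower in EC by a log2 fold change of -2.87. On its other side Mark4, a microtubule-affinity regulating kinase, was higher in EC, with 76.1 and 57.9 CPM against 14.7, 17.9 and 19.4 CPM (log2 fold change 1.96). A930016O22Rik, which overlaps Ckm on the other strand, had at most 4 reads in any library. At Ckmt1, Map1a, Ppip5k1 and Catsper2 were lower in EC by -0.79, -1.44 and -1.54. At Ckb, Mark3, Bag5 and Apopt1 differed by -0.66, -0.57 and -0.60, and at Ckmt2, Zcchc9 differed by -0.24.

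The second comparison asked where GATA4 was found around these genes in the endothelial and the cardiomyocyte lineage. Peaks near the 4 genes were few: 1, 1 and 4 in Tie2-Cre replicates 1 to 3 and 4, 0 and 7 in Tnnt2-Cre replicates 1 to 3. Lists differed in length, from 2734 peaks in Tie2-Cre replicate 2 and 3603 in Tnnt2-Cre replicate 2 to 17682 or more in the others. Per 10000 peaks the numbers were 0.566, 3.66 and 1.54 against 1.75, 0 and 2.30. These ranges overlapped, with means of 1.92 ± 1.58 and 1.35 ± 1.20 (SD, n = 3 each) and an exact two-sided permutation p of 0.7 over 20 arrangements, which cannot go below 0.1. A missing peak does not show that a site is unbound.

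Merging peaks that shared at least 1 base gave 12 GATA4 regions near the 4 genes, 4 of them in at least 2 of 3 libraries of a lineage. These calls rest on the settings: with lists cut to equal length 0 such regions were left for either lineage, and in a 20 kb window 0 were left for Tnnt2-Cre. Of the 4 genes, 1 had a region selective for Tie2-Cre (at least 2 of 3 libraries against 0 of 3), beside 28.1% of all 24277 genes placed. A Tnnt2-Cre-selective region lay near 2 of them, beside 39.0% of all genes, and a region shared by both lineages near 0, beside 41.1%.

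The Tie2-Cre-selective region (chr7:19441492-19442070) lay in an intron of Mark4, 30398 bp downstream of the Ckm start, and 16424 bp from the start of Mark4. It had a peak in 3 of 3 Tie2-Cre libraries, with the authors' fold over background at 5.30, 7.46 and 7.12 and −log10 q of 8.01, 9.01 and 14.9, and in 0 of 3 Tnnt2-Cre libraries. An ATAC peak overlapped it in 8 of 8 endothelial libraries. It was the single region near a member found in every library of a lineage. The RNA of Ckm had no more than 1 read in an EC library, and that of Mark4 was higher in EC.

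Both Tnnt2-Cre-selective regions of Ckm lay in an intron of Ppp1r13l at the edge of the window. The first (chr7:19362160-19362488, 48606 bp upstream of Ckm and 944 bp from the start of Ppp1r13l) had peaks in Tnnt2-Cre replicates 1 and 3, with −log10 q of 12.4 and 9.48. ATAC peaks of 2 of 2 Tie2-Cre libraries overlapped it, and those of 0 of 6 Gata4 het and ko libraries did. The second (chr7:19362929-19363200) had −log10 q of 4.39 and 5.83 in the same replicates and no ATAC peak. Ppp1r13l RNA was not called, at 2.80 ± 0.708 CPM for EC (SD, n = 2) against 4.24 ± 1.17 for CM (SD, n = 3).

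At Ckmt2, a Tnnt2-Cre-selective region (chr13:91911284-91911508) lay in an intron of Rasgrf2, 34399 bp upstream of the Ckmt2 start, which was the nearest start. Its peaks in Tnnt2-Cre replicates 1 and 3 had a fold of 5.45 and 5.29 and −log10 q of 9.57 and 9.05. ATAC peaks overlapped it in 2 of 2 Tie2-Cre libraries and in 0 of 6 Gata4 het and ko libraries. The het and ko lists were called to a different threshold and from fewer cells than the Tie2-Cre lists, so such differences cannot be told apart from the calling. Closer to the start, at -442 and -741 bp (region centres), Tnnt2-Cre replicate 3 alone had 2 peaks with −log10 q of 4.04 and 6.57; they were singled out after their values were seen and touch none of the printed bases. Ckb had 2 regions, both in Tie2-Cre replicate 3 only, and Ckmt1 had 0.

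**Figure D4:**
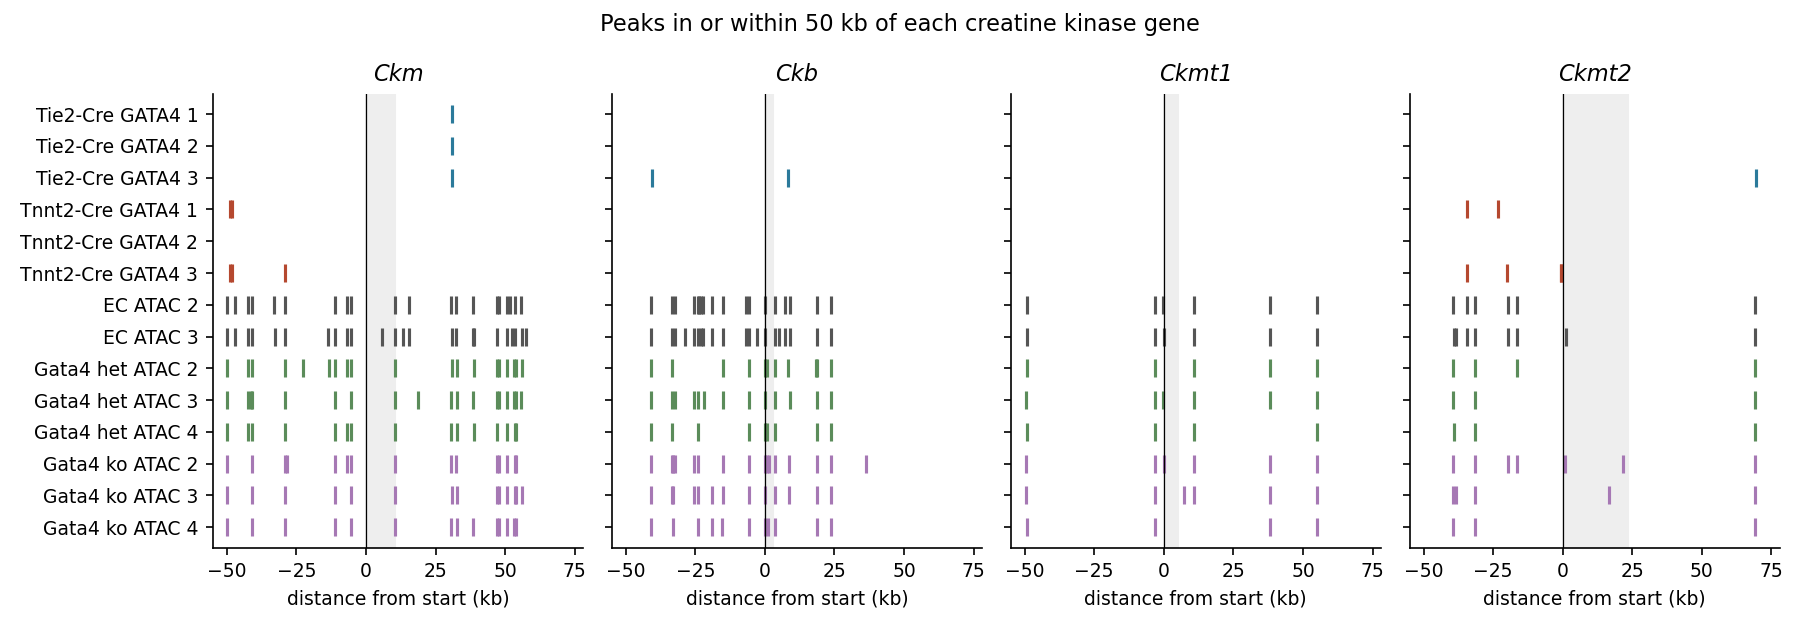
Peak summits in or within 50 kb of each gene, by distance from its start in kb along the direction of transcription (x axis; the gene body is shaded), 1 row per library: GATA4 in Tie2-Cre and Tnnt2-Cre replicates, then endothelial ATAC from Tie2-Cre (EC), Gata4 het and Gata4 ko. The GATA4 peak shared by the 3 Tie2-Cre libraries stands about 30 kb downstream of the Ckm start, and ATAC marks at the start of Ckb are in every ATAC row, with none at the start of Ckm.

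The third comparison described open chromatin in endothelial cells. The 8 ATAC libraries gave 64 merged regions near the 4 genes (26 at Ckm, 22 at Ckb, 7 at Ckmt1 and 9 at Ckmt2), of which 24 had a peak in all 8. A region with a peak in all 8 libraries lay within 1 kb of the start of 1 of the 4 genes, Ckb, beside 56.9% of all genes placed. That region (chr12:111670059-111672885) ran over the start and the first exons of Ckb.

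The other starts had a peak in fewer libraries. At Ckmt1, a region that includes the start (chr2:121358318-121358971) had peaks in 2 of 2 Tie2-Cre, 1 of 3 het and 1 of 3 ko libraries. At Ckmt2, the nearest region (chr13:91875487-91876059, in an intron of the gene) had a peak in 1 Tie2-Cre and 1 ko library. No peak lay within 1 kb of the Ckm start in any of the 8. The nearest region with a peak in 8 of 8 libraries lay upstream (chr7:19405244-19406046, centred at -5449 bp), and the 3′ end of the gene held another (chr7:19420929-19421825). Between these, a region in the Ckm body (chr7:19416568-19416947) had a peak in 1 of 8 libraries.

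Between Gata4 genotypes, the peaks near the 4 genes numbered 39, 40 and 31 in the het libraries (replicates 2 to 4) and 44, 38 and 32 in the ko libraries. Per 10000 peaks these were 4.32, 4.84 and 4.61 in het and 5.03, 4.79 and 5.74 in ko, with overlapping ranges. The means were 4.59 ± 0.263 and 5.19 ± 0.494 (SD, n = 3 each), and the exact two-sided permutation p was 0.2 over 20 arrangements. The Tie2-Cre libraries had 50 and 58 peaks, or 4.36 and 4.44 per 10000. The lowest −log10 q in a list was 1.31 to 1.52 in the Tie2-Cre lists and 0.426 to 0.558 in the het and ko lists, so presence cannot be compared on equal terms between those sets.

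Of the 64 regions, 1 had a peak in 3 of 3 het and 0 of 3 ko libraries, beside 0.274% of all 165115 ATAC regions, and 0 had the opposite pattern, beside 0.0993%. The former (chr7:19368356-19368947) covered an exon of Ppp1r13l, centred at -42443 bp from the Ckm start, and also had peaks in 2 of 2 Tie2-Cre libraries. No GATA4 region overlapped it.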

How the data were processed

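RNA, GATA4 pull-down and ATAC-seq libraries of mouse hearts at embryonic day 12.5 were grouped by their labels. The deposited RNA table holds counts per gene from featureCounts 1.6.3, for forward-stranded reads on UCSC mm10 genes, per the file headers. The 5 library columns were counted, with 0 columns unmapped. Peak lists, 1 per library, hold a fold over background (a ratio) and −log10 p and q, as deposited by the authors; MACS2 2.2.4 is in the submitters' processing notes, and whether a control entered is not given in the sources here.

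Counts were tested in R 4.3.3 by the quasi-likelihood F test of edgeR 4.0.16, after filterByExpr and TMM scaling, with Benjamini-Hochberg adjustment over 14851 genes at a threshold of 0.05. CPM and RPKM here are computed from TMM-scaled library sizes. An SE printed beside an edgeR log2 fold change is that change, without its sign, over the square root of F, and was not estimated by the fit. DESeq2 1.42.0 was an alternative. Its own SE was 1.64 for Ckm and 1.01 for Ckmt1, larger than the 1.15 and 0.72 printed here, and 0.11 for Ckb, beside 0.10. Replicates of a group differed by more than sampling noise in each pair (chi-square over its degrees of freedom 8.05 to 35.7). Peaks were merged in Python 3.11.15 with pandas 2.3.3; 144 genes with exons on more than 1 chromosome or strand were dropped there. Tests were tried on simulated data. The table does not mark UTRs, and coordinates are mm10, counted from 1. RefSeq promoters matched 4 of 4 members.

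Members and gene lists were chosen with earlier results of these data known. Named genes are the members, the creatine genes Gatm, Gamt and Slc6a8, up to 3 genes per list with the smallest adjusted p and up to 2 against the list's majority, the tested neighbours that were called, and 3 genes of like profile per member. Named regions are GATA4 regions in at least 2 libraries, ATAC regions within 1 kb of a start or over such a region, and those in 3 of 3 libraries of a Gata4 genotype and 0 of 3 of the other. Some genes that this rule or the marker lists would name are not reported here. Alternatives were each library left out, the replicate block, other scalings, no filter, a 2-fold threshold, windows of 20 and 100 kb, lists of equal length, and only peaks with −log10 q of 5 or more.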

Additional observations from a re-analysis of the deposited data

How the results depend on the processing

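All 44 alternative values for the RNA differences of the 4 genes kept their direction and an edgeR or DESeq2 adjusted p of at most 0.00193. They ran from -15.28 to -11.30 for Ckm, -1.67 to -1.46 for Ckb, -8.23 to -3.14 for Ckmt1 and -11.29 to -10.02 for Ckmt2 on the log2 scale. The ends at -15.28 and -8.23, and every Ckmt2 value, came from fits with 0 EC reads for that gene. Their closeness or spread therefore does not give the size of the difference. For Ckmt2 the counts give only a bound, at least 128-fold higher in CM against a floor of 3 counts over both EC libraries. Deviations of same-numbered EC and CM libraries had correlations of -0.02 and -0.01 over 2 pairs. With 2 EC libraries the EC deviations mirror each other, so these values cannot show whether replicate numbers pair the libraries. With the replicate block, 10977 genes were called in place of 11547. Ckm, Ckb, Ckmt1 and Ckmt2 then stood at -11.57, -1.60, -3.94 and -11.13. With a difference of at least 2-fold required, 5244 genes were called. Counts of list genes, an alternative added after seeing the data, stayed within 1.5 times.

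The excess of GATA4 peaks per 10000, Tie2-Cre minus Tnnt2-Cre, was 0.571 and turned to -2.47 in a 100 kb window. Leaving out 1 library moved it from -0.30 (without Tie2-Cre replicate 2) to 1.25, and it was -0.10 without Tnnt2-Cre replicate 2. Swapping labels only within a replicate number (the replicate block) leaves the peak differences at 0.571 and, for het minus ko, -0.60 by construction. The exact permutation p went from 0.7 to 1.0 and from 0.2 to 0.5. Such swaps allow fewer arrangements, so the smallest p they can give is larger and the p-values do not compare on equal terms. Lists of equal length left 0 regions in at least 2 of 3 libraries for either lineage. A 20 kb window left 0 Tnnt2-Cre regions and 20 ATAC regions of both Tie2-Cre libraries, against 3 and 48 at 50 kb. At 100 kb there were 6 Tie2-Cre, 9 Tnnt2-Cre and 89 ATAC regions. A wider window holds more regions by construction; the cause of the other changes was not tested. Depth limits Ckm, Ckmt1 and Ckmt2 in EC, where totals of 0 to 3 reads give the size of the difference little precision. Groups of 2 or 3 libraries cannot bring an exact p below 0.1.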

Other observations

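Fabp4, which encodes a fatty acid carrier of endothelial cells and adipocytes, had 5.99 and 7.43 CPM in EC. In CM replicates 1 to 3 it had 11.1, 10.3 and 43.9 CPM. Replicate 3 was higher by 2.03 on the log2 scale, beside 1.65 for Ckm. The 6 endothelial markers summed to 681.1, 682.9 and 586.5 CPM in those CM libraries, and their part in the Fabp4 level was not tested. Mb, the gene for the oxygen store myoglobin, had 401 and 389 CPM in replicates 1 and 2 and was higher by 0.86 in replicate 3. These genes were named after their values were seen, and the difference between single libraries has no replicate check.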
